A study of Oikopleura dioica with 14 samples.

Results

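The comparison followed Pax37b mutant animals (genotype Pax37b-/-) of the tunicate Oikopleura dioica from 6 to 8 hours post fertilization (hpf). Its members are the mutant libraries of those stages, 3 at 6 hpf and 3 at 8 hpf, chosen by the genotype and stage in their labels, and they make up 6 of the 14 libraries in the series. At 4 hpf there are 2 mutant and 2 wild-type pools, and wild type adds 2 pools at each later stage. Each library is polyadenylated RNA from a pool of whole animals of 1 genotype. The animals came from crosses of Pax37b+/- parents, and each animal was genotyped from part of its own lysate before pooling. The sources used here do not give the number of animals in a pool, the kind of mutant allele or whether replicates came from separate crosses, so p-values measure the spread between these pools, which may be technical.

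Oikopleura dioica is a small planktonic relative of the vertebrates that feeds through a house, a mucous filter structure secreted by a single-layered epithelium on its trunk. That epithelium is divided into fields of cells with fixed shapes, and one of them, the Fol territory to which the series title ties Pax37b, secretes the food-concentrating filter. Pax37b belongs to the Pax3/7 family of transcription factors, which bind DNA through a paired domain and a homeodomain and which in vertebrates act in the dorsal neural tube, the neural crest and muscle precursors. The hours studied lie in the tadpole stage, when trunk and tail organs take shape and the epithelium is patterned before the first house is made.

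The deposited tables give estimated counts for 17212 gene identifiers that carry no names, and none of them matched a gene of the reference table. Pax37b itself, house-forming genes and cell type markers were therefore not analysed here. Genes are listed by their identifiers and described by their values. The 3 libraries at 6 hpf held 14656991, 15465546 and 13038407 counts and the 3 at 8 hpf held 12848393, 10350789 and 10960333, so the 8 hpf libraries were the shallower. The wild-type libraries held 14043388 to 15682925 counts at these stages, and the 4 hpf libraries held 2803712 to 3941905. Each stage comes from its own table and the labels give no batch, so stage and any difference in handling between stages cannot be told apart. In pooled whole animals, fewer cells of a type and less RNA per cell cannot be told apart either.

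The mutant libraries of 8 hpf rested on fewer abundant genes than those of 6 hpf. At 6 hpf 2598, 4645 and 3760 genes had 100 counts or more, and at 8 hpf 1799, 2390 and 783 genes did. The stages did not overlap, and replicate 3 at 8 hpf had by far the fewest such genes. The means were 3668 ± 1027 genes at 6 hpf and 1657 ± 813 at 8 hpf (SD, n = 3 each; two-sided exact permutation p = 0.1, the smallest that 3 against 3 can give). Thinning every library to 10350789 counts left 2529, 4445 and 3664 genes against 1742, 2390 and 767. At a limit of 20 counts the stages overlapped, with 2926, 5291 and 4473 genes against 3084, 4330 and 3033 (two-sided exact permutation p = 0.5). In wild type the number was 2168 and 3674 at 6 hpf and 4466 and 2729 at 8 hpf, so the stages overlapped.

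Counts were also more concentrated in a few genes at 8 hpf. The 100 most abundant genes took 20.2%, 16.2% and 19.3% of the counts at 6 hpf and 30.7%, 25.0% and 53.4% at 8 hpf. Replicate 3 at 8 hpf again stood apart with the highest share, and the other 8 hpf libraries still lay above every 6 hpf library. The stage means were 18.6% ± 2.08 and 36.4% ± 15.0 (SD, n = 3 each; two-sided exact permutation p = 0.1), and their difference of 17.8 percentage points became 9.26 without replicate 3 at 8 hpf. In wild type the share was 25.4% and 17.5% at 6 hpf and 20.1% and 24.4% at 8 hpf. Genes at 31623 counts or more numbered 28, 16 and 18 in the mutants at 6 hpf and 57, 17 and 108 at 8 hpf.

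At the other end of the scale, fewer genes were without a count at 8 hpf and more had a few counts. At 6 hpf 6649, 4886 and 2859 identifiers had no count, and at 8 hpf 1615, 1133 and 1406 had none. Every 8 hpf library had fewer empty genes than every 6 hpf library, although the 8 hpf libraries were shallower. The means were 4798 ± 1897 and 1385 ± 242 genes (SD, n = 3 each; two-sided exact permutation p = 0.1). Genes with 1 to 30 counts numbered 7740, 7209 and 10093 at 6 hpf against 13200, 12848 and 14103 at 8 hpf, and those with 31 to 99 counts numbered 225, 472 and 500 against 598, 841 and 920. The median identifier had 1, 2 and 3 counts at 6 hpf and 6, 9 and 7 at 8 hpf. All genes under 100 counts together took 0.238%, 0.341% and 0.573% of the counts at 6 hpf and 0.994%, 1.52% and 1.55% at 8 hpf. Of 6 such library measures compared between the stages, all 6 were without overlap, each with an exact permutation p of 0.1 and a Benjamini-Hochberg adjusted p of 0.1.

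In wild type the low range did not separate the stages. At 6 hpf 1504 and 3738 identifiers had no count in wild type, and at 8 hpf 2129 and 2731 had none. The median identifier had 6 and 3 counts at 6 hpf and 5 and 3 counts at 8 hpf. The lowest wild-type number of empty genes, in a 6 hpf library, was within the range of the mutants at 8 hpf.

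**Figure D1:**
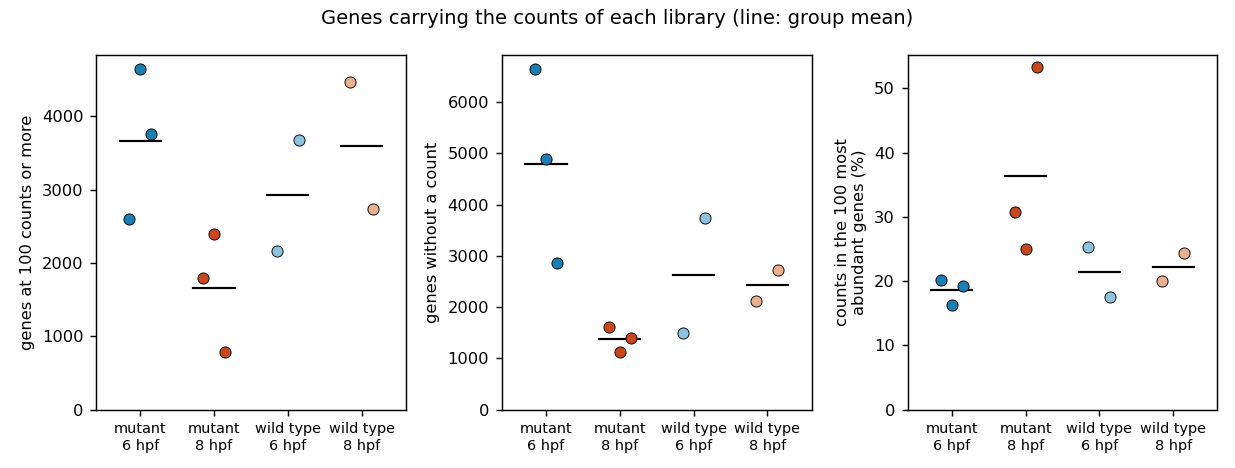
Each point is 1 library of mutants or wild type at 6 or 8 hpf and each line a group mean, for genes with at least 100 counts, genes without a count, and the percent of counts in the 100 most abundant genes. The mutant stages do not overlap in any of the 3 measures (783 to 2390 genes at 100 counts at 8 hpf against 2598 to 4645 at 6 hpf), and the wild-type stages overlap in all 3.

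**Figure D2:**
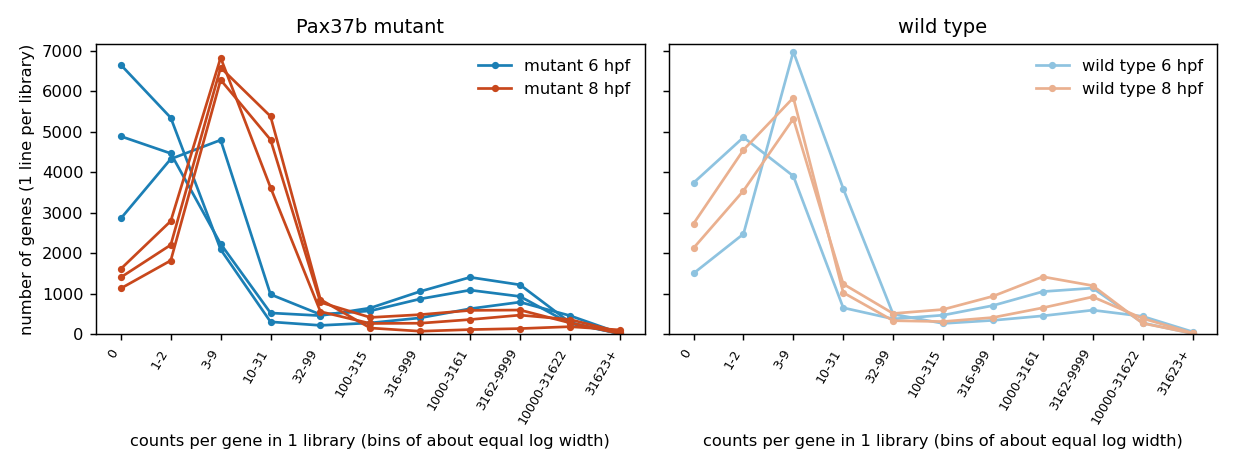
Each line is 1 library and gives the number of genes (y axis) in bins of counts per gene (x axis) for mutants on the left and wild type on the right. At 8 hpf the mutant lines peak at 3 to 9 counts (6279 to 6824 genes), at 6 hpf replicates 1 and 2 peak at no count, and the 8 hpf lines lie below the 6 hpf lines between 1000 and 10000 counts, where replicate 3 at 8 hpf is lowest.

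The abundant genes were largely different from pool to pool. Overlap was taken as the genes with at least 100 counts in both libraries of a pair, in percent of those with as many in one or both. By this measure the 3 pairs at 6 hpf shared 28.1%, 26.6% and 35.0%, and the 3 pairs at 8 hpf shared 20.9%, 14.4% and 13.7%. The 9 pairs that cross the stages shared 9.39% to 23.7%. The mean was 29.9% within 6 hpf, 16.3% within 8 hpf and 17.2% between the stages, so 2 mutant pools of 8 hpf had on average no more abundant genes in common than a pool of 6 hpf and a pool of 8 hpf. These pairs reuse libraries and were given no test. With 20 counts as the limit, libraries within 8 hpf shared 36.3% and libraries between stages 25.1%. As a share of each list, 36.0% to 59.5% of the abundant genes of an 8 hpf library were abundant in a given 6 hpf library, and 10.0% to 33.1% of those of a 6 hpf library were abundant in a given 8 hpf library.

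At 6 hpf 6932 genes reached 100 counts in 1 library or more, and at 8 hpf 3771 did. All 3 libraries had 1031 of them at 6 hpf, which is 14.9% of those in any, and 231 at 8 hpf, which is 6.13%. Exactly 1 library had 3892 genes at 6 hpf (56.1%) and 2801 at 8 hpf (74.3%). A further 9134 identifiers reached 100 counts in none of the 6 libraries.

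A core of 130 genes was at 100 counts or more in all 6 mutant libraries. It took 9.94%, 9.65% and 8.73% of the counts at 6 hpf and 13.7%, 8.96% and 21.1% at 8 hpf, so the ranges of the stages overlapped. Of the 130 genes, 97 (74.6%) were also at that level in all 4 wild-type libraries of 6 and 8 hpf, where 2.71% of all identifiers were at 100 counts in all 4. So were 27.5% of the 1031 genes abundant in all 3 mutant libraries of 6 hpf and 50.2% of the 231 of 8 hpf. The 130 genes belong to both of these sets. The median of the 130 log2 changes from 6 to 8 hpf was 0.13, none of the 130 passed edgeR's test (smallest adjusted p = 0.18), and 14 lay wholly higher and 15 wholly lower at 8 hpf. Among the 5421 genes tested that reached 100 counts, 7.77% lay wholly higher and 10.7% wholly lower. edgeR's test called 7.84% of all 6940 genes tested. Even the 130 core genes varied widely, with a highest CPM (counts divided by the library total and put on a common scale) between 2.35 and 610 times the lowest over the 6 libraries (median 15.9 times).

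Genes that were abundant in all pools of 1 stage and in none of the other were compared with wild type, whose libraries played no part in choosing them. At 6 hpf only, 335 genes were at 100 counts or more in all 3 mutant libraries with none at 8 hpf. Of these, 20 (5.97%) had the same pattern in wild type, abundant in both libraries at 6 hpf and in neither at 8 hpf. That pattern was held by 1.67% of all identifiers and by 3.88% of the 1031 genes abundant in all 3 mutant libraries of 6 hpf, to which the 335 belong. The opposite wild-type pattern was found for 10 of them (2.99%), where 3.22% of all identifiers had it. At 8 hpf only, 22 genes were abundant in all 3 mutant libraries with none at 6 hpf. Of these, 4 (18.2%) were abundant in both wild-type libraries at 8 hpf and in neither at 6 hpf, and 1 (4.55%) had the opposite pattern. The first was held by 5.63% of the 231 genes abundant in all 3 mutant libraries of 8 hpf, to which the 22 belong. Among the other genes abundant in no 6 hpf mutant library, the first of these patterns was held by 1.62% of 9134 that were abundant in no 8 hpf mutant library, 5.65% of 1008 abundant in 1, and 16.4% of 116 abundant in 2. This order was given no test.

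edgeR's quasi-likelihood test on 6940 genes called 544 (7.84%) at an adjusted p under 0.05, of which 541 (7.8% of genes tested) were higher at 8 hpf and 3 (0.0432%) lower. An unadjusted p under 0.05 was reached by 2399 genes. The spread between pools was wide, with a biological coefficient of variation of 1.61. Of the 541 risers, 521 (96.3%) stayed under 100 counts in all 6 libraries. The filter on low counts asks for about 10 counts in at least 3 libraries, and all 521 came through it by their 3 libraries of 8 hpf, with no library of 6 hpf at that level. A gene that enters in this way has to be higher at 8 hpf, so their direction is a description. Without the filter edgeR called 96 genes, 50 higher and 46 lower. DESeq2, run on all identifiers, called 2443 genes with 920 higher (37.7%) and 1523 lower, and shared 198 calls with the 544. Upper-quartile factors raised the median log2 change of all genes tested by 4.09 and gave 1734 higher and 2 lower. With only genes at a mean of 5 CPM or more tested, none passed edgeR's adjusted threshold (1209 at an unadjusted p under 0.05), and limma-voom called 0 (549 unadjusted).

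The call count varied with the pools used. It was 0 without replicate 1, 0 without replicate 2 and 435 without replicate 3 of 6 hpf, and 585 without replicate 1, 71 without replicate 2 and 42 without replicate 3 of 8 hpf.

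The 521 low risers went from almost no counts to a few in every mutant pool. Their median was 1, 2 and 4 counts at 6 hpf and 14, 16 and 16 at 8 hpf. At 6 hpf none exceeded 4, 6 and 9 counts, and at 8 hpf none was under 10, 8 and 9 or over 92, 97 and 79. Together they summed to 39.3, 56.6 and 144 CPM at 6 hpf and 632, 903 and 851 CPM at 8 hpf. These values chose the genes and are a description. Over the same libraries the median identifier had 1 to 3 counts at 6 hpf and 6 to 9 at 8 hpf, and the part of this shift in the calls was not tested. In wild type the medians of the 521 genes were 11 and 4 counts at 6 hpf and 8 and 6 at 8 hpf, with no order by stage. Their summed level there was 5987 and 16965 CPM at 6 hpf and 27758 and 18194 CPM at 8 hpf, without overlap between the stages, and single genes among them reached 21375 to 30030 counts in a wild-type library.

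In wild type the 541 risers were near the background of all genes tested. Both 8 hpf wild-type libraries were above both 6 hpf ones for 78 risers (14.4%), where 13.6% of all 6940 genes were, and below for 83 (15.3%), where 19.7% were. Of the 521 low risers, 70 were above and 78 below. Among all 1519 genes tested that stayed under 100 counts in the mutants, 9.94% were above and 15.7% below. These shares were given no test.

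**Figure D3:**
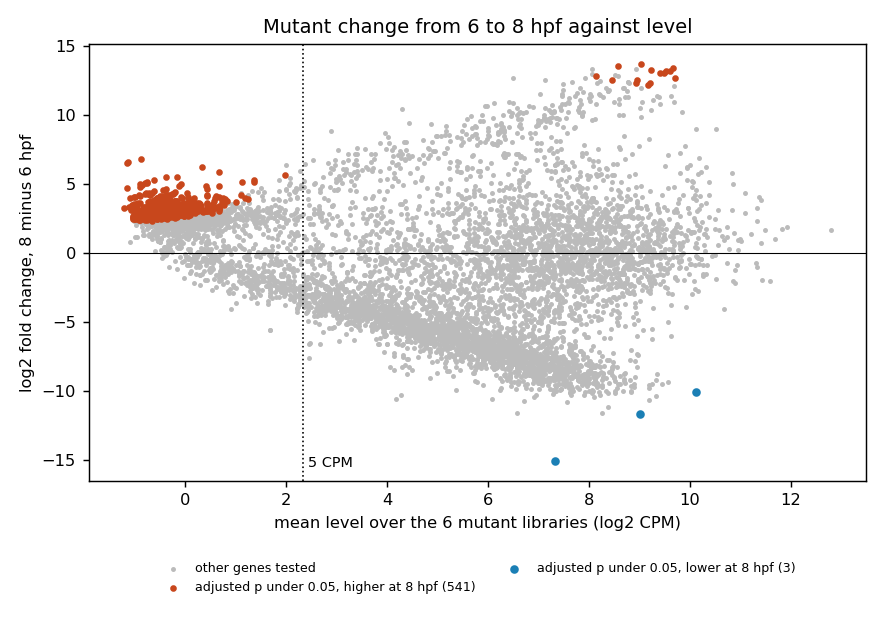
Each point is 1 of the 6940 genes tested, with its mean level over the 6 mutant libraries on the x axis (log2 CPM) and its fitted log2 change from 6 to 8 hpf on the y axis; coloured points passed edgeR's adjusted threshold. Most of the 541 genes higher at 8 hpf lie left of the dotted line at 5 CPM, 15 lie to its right at the top, and the 3 lower genes lie at the bottom right.

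The 20 risers that reached 100 counts mostly did so in part of the 8 hpf pools. In 12 of them 1 of the 3 libraries at 8 hpf reached 100 counts, in 6 there were 2 such libraries, and in 2 all 3 did. Replicate 3 alone carried 7 of the 12, which had 34257 to 54788 counts there and 9 to 86 counts in replicates 1 and 2. The rest of the 12 were only just past the limit, with 106 to 203 counts in replicate 1 or 2. Another riser had 11266 and 14556 counts in replicates 1 and 2 and 9 in replicate 3.

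GSOIDG00018159001 was the riser with the smallest adjusted p among those named by the rule, and it was high in every pool of 8 hpf. It had 0, 4 and 3 counts in the mutants at 6 hpf and 25964, 11629 and 14126 at 8 hpf. All 3 pools of 6 hpf were at or near 0, and the gene had no count in any library of 4 hpf. The level was 0.163 ± 0.142 CPM at 6 hpf and 1478 ± 478 CPM at 8 hpf (SD, n = 3 each), a log2 change of 13.20 (SE 2.40, edgeR adjusted p = 0.0337). Wild type had 6 and 7 counts at 6 hpf and 12509 and 27041 at 8 hpf, a log2 change of 11.55 (SE 2.47, edgeR adjusted p = 0.436). The difference between the genotypes' changes was 1.21 (SE 3.58, edgeR adjusted p = 0.829). The mutant call passed in 4 of 19 alternative fits and in 0 of the 6 that leave out 1 library.

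The other riser named by the rule, GSOIDG00009150001, was a gene of 1 pool. It had 2, 3 and 2 counts at 6 hpf and 86, 12 and 53406 at 8 hpf. The level was 0.161 ± 0.0296 CPM at 6 hpf and 1627 ± 2811 CPM at 8 hpf (SD, n = 3 each), with a log2 change of 13.40 (SE 2.54, edgeR adjusted p = 0.0418) that was 4.32 without replicate 3 at 8 hpf. Wild type had 4 and 3 counts at 6 hpf and 2 and 3167 at 8 hpf, where the libraries again disagreed. The call passed in 3 of 18 alternative fits.

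Of the genes that fell, GSOIDG00010277001 had 3532, 5043 and 5064 counts at 6 hpf and none in any pool at 8 hpf. The 6 hpf level was 318 ± 74.0 CPM (SD, n = 3), at least 1199-fold higher than a floor of 3 counts per library at 8 hpf (edgeR adjusted p = 0.0393). Wild type held little of this RNA at either stage, with 0 and 60 counts at 6 hpf and 2 and 0 at 8 hpf, and the mutants of 4 hpf had 0 and 890. The call passed in 3 of 19 alternative fits and in 0 of the 6 that leave out 1 library.

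GSOIDG00007251001 fell from 47139, 30324 and 19966 counts at 6 hpf to 24, 16 and 40 at 8 hpf. It was abundant in every mutant pool of 6 hpf and had at most 40 counts in a pool of 8 hpf. The level went from 2236 ± 876 CPM to 2.35 ± 1.13 CPM (SD, n = 3 each), a log2 change of -10.10 (SE 2.18, edgeR adjusted p = 0.0490). Wild type held it at both stages, with 1684 and 19801 counts at 6 hpf and 12648 and 3896 at 8 hpf (log2 change -0.54, SE 2.59, edgeR adjusted p = 0.978). The difference between the genotypes' changes was -10.05 (SE 3.23) and did not pass (edgeR adjusted p = 0.141). The mutant call passed in 3 of 19 alternative fits and in 1 of the 6 that leave out 1 library.

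The third gene that fell, GSOIDG00009522001, is named after its values were seen because the calls were so few. It had 40277, 111 and 4460 counts at 6 hpf and 7, 3 and 6 at 8 hpf, so the pools of 6 hpf spanned a wide range. The log2 change was -11.65 (SE 2.42, edgeR adjusted p = 0.0499), just inside the threshold.

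Genes were also counted by whether the stages overlapped. Of 6940 genes, 1627 (23.4%) had all 3 libraries of 8 hpf above all 3 of 6 hpf and 582 (8.39%) had them below. With upper-quartile scaling 2353 were higher and 207 lower. At a mean of 5 CPM or more 757 were higher and 596 lower, and without a filter on low counts 6180 were higher and 617 lower. Without replicate 1 or 3 of 6 hpf 1320 and 912 were lower, and without replicate 2 of 6 hpf 2516 were higher. Among the 1519 genes that stayed under 100 counts, 1206 (79.4%) were higher and 3 (0.197%) lower. Of these 1519 genes, 1342 (88.3%) had all 3 libraries of 8 hpf at the filter's level, 1014 of them with no library of 6 hpf at it, and 7 had all 3 libraries of 6 hpf there. Genes that pass through 1 stage alone have to be higher there, so the balance of this class is a description. Among the 5421 that reached 100 counts, 421 (7.77%) were higher and 579 (10.7%) lower. Wild type lay the same way, with both libraries of 1 stage apart from both of the other, for 161 (27.8%) of the 579 lower genes against 20.8% of all 5421. It did so for 81 (19.2%) of the 421 higher genes against 14.7% of all 5421. Among the 1206 low genes that were higher it did so for 116 (9.62%) against 9.94% of all 1519.

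More genes were on at 6 hpf only than at 8 hpf only when they had to be at 10 CPM or more in all 3 pools of a stage and at 1 CPM or less in all 3 of the other. Of the 17212 identifiers, 87 (0.505%) were on at 6 hpf only and 6 (0.0349%) were on at 8 hpf only. With upper-quartile factors the numbers were 2 and 145, the opposite order. Leaving out replicate 1, 2 or 3 of 6 hpf gave 295, 158 and 218 genes on at 6 hpf only and 9, 12 and 10 on at 8 hpf only. Leaving out replicate 1, 2 or 3 of 8 hpf gave 117, 158 and 142 against 23, 18 and 54. The 87 genes had a median level of 171 CPM at 6 hpf and 0.458 CPM at 8 hpf. These levels chose the genes and are a description. edgeR's test called 1 of the 87 and 2 of the 6. Of all 6940 genes tested it called 7.84%, with 7.8% higher and 0.0432% lower at 8 hpf.

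Of the 87 genes on at 6 hpf only, both mutant libraries of 4 hpf had 43 (49.4%) at 10 CPM or more. This was so for 17.7% of all identifiers and for 69.0% of the 1031 genes at 100 counts in all 3 mutant libraries of 6 hpf. In wild type 21 and 39 of the 87 (24.1% and 44.8%) were at 10 CPM or more at 6 hpf. At 8 hpf 37 and 19 (42.5% and 21.8%) were. Of all identifiers 12.1% and 20.5% were at that level at 6 hpf and 24.6% and 15.3% at 8 hpf. The wild-type stages overlapped for the 87 and for all identifiers. Both wild-type libraries of 8 hpf were below both of 6 hpf for 19 (21.8%), where 18.2% of all identifiers were, and above for 12 (13.8%), where 12.2% were. Of the 1031 genes, 25.5% were below and 15.3% above. At 8 hpf 45 of the 87 were at 10 CPM or more in at least 1 wild-type library (31.4% of all identifiers were) and 11 in both (8.45% of all identifiers were). At 100 counts or more, 54.0% of the 87 were in at least 1 wild-type library of 8 hpf, against 79.4% of the 1031 genes. In both libraries 14.9% of the 87 were, against 43.1% of the 1031.

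Of the 6 genes on at 8 hpf only, 5 had both wild-type libraries of 8 hpf above both of 6 hpf, where 12.2% of all identifiers did and 26.0% of the 231 genes at 100 counts in all 3 mutant libraries of 8 hpf. Besides GSOIDG00018159001 they include a pair with consecutive identifier numbers, named here after their values were seen. GSOIDG00016721001 had 1, 2 and 2 counts in mutants at 6 hpf and 4328, 2954 and 16175 at 8 hpf (log2 change 12.58, SE 2.52, edgeR adjusted p = 0.0443). In wild type it had 2 and 2 counts at 6 hpf and 1624 and 442 at 8 hpf. Its neighbour in number GSOIDG00016720001 had 0, 2 and 0 counts in mutants at 6 hpf and 1762, 1129 and 6472 at 8 hpf. In wild type the neighbour had 1 and 0 counts at 6 hpf and 308 and 156 at 8 hpf.

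The pair kept nearly 1 ratio to each other in the mutants, with 0.407, 0.382 and 0.400 counts of GSOIDG00016720001 per count of GSOIDG00016721001 at 8 hpf, against 0.190 and 0.353 in wild type. Whether the identifiers are near-identical copies that share reads was not analysed here.

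Of the remaining 3 genes, one had 238, 160 and 910 counts at 8 hpf after 0, 0 and 1 at 6 hpf, and 45 and 12 counts in wild type at 8 hpf after 2 and 1. Another had 498, 345 and 592 counts after 2, 1 and 10, and in wild type 361 and 47 after 18 and 7. The last had 5798, 1987 and 2837 counts after 2, 4 and 9, and it is the exception in wild type, with 31677 and 3 counts at 6 hpf and 9281 and 9239 at 8 hpf.

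**Figure D4:**
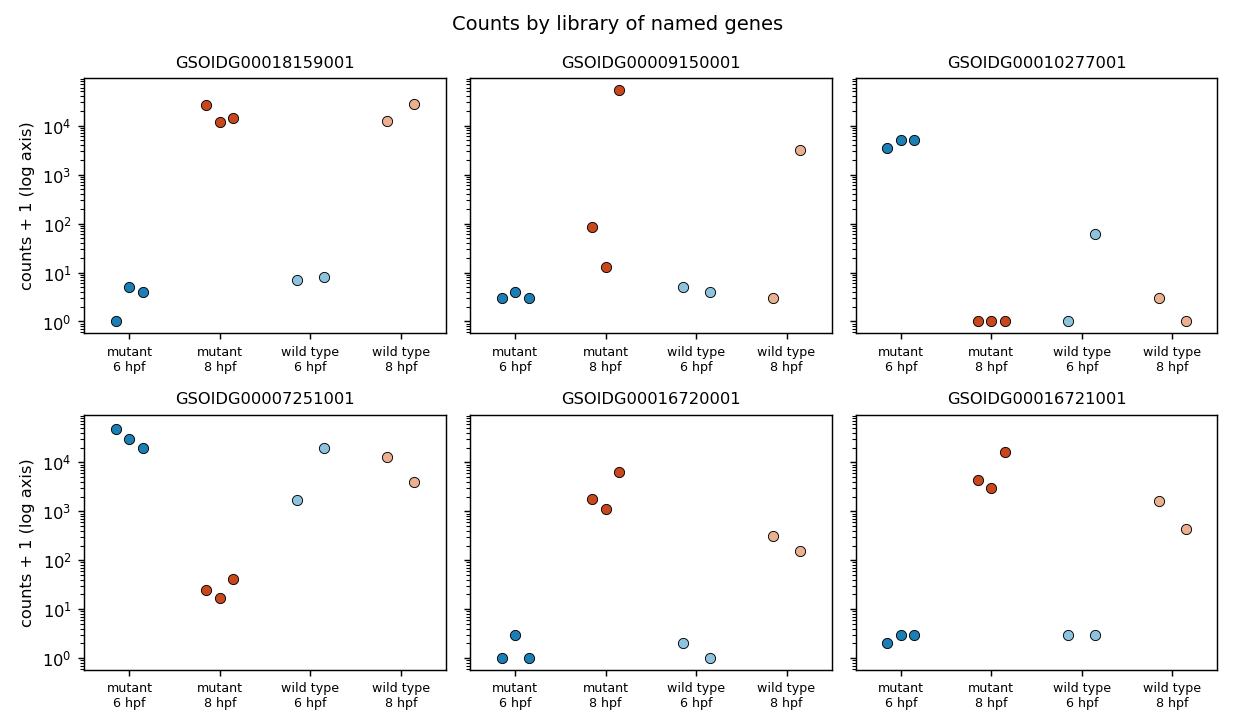
Each point is the count plus 1 (log axis) of 1 gene in 1 library, for the 2 genes named as risen, 2 named as fallen and the pair with consecutive numbers, with mutant and wild-type libraries of 6 and 8 hpf in columns. GSOIDG00018159001 and the pair are high in every 8 hpf library of both genotypes, GSOIDG00009150001 is high in 1 mutant and 1 wild-type library of 8 hpf, and GSOIDG00007251001 is low in mutants at 8 hpf only.

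**Figure D5:**
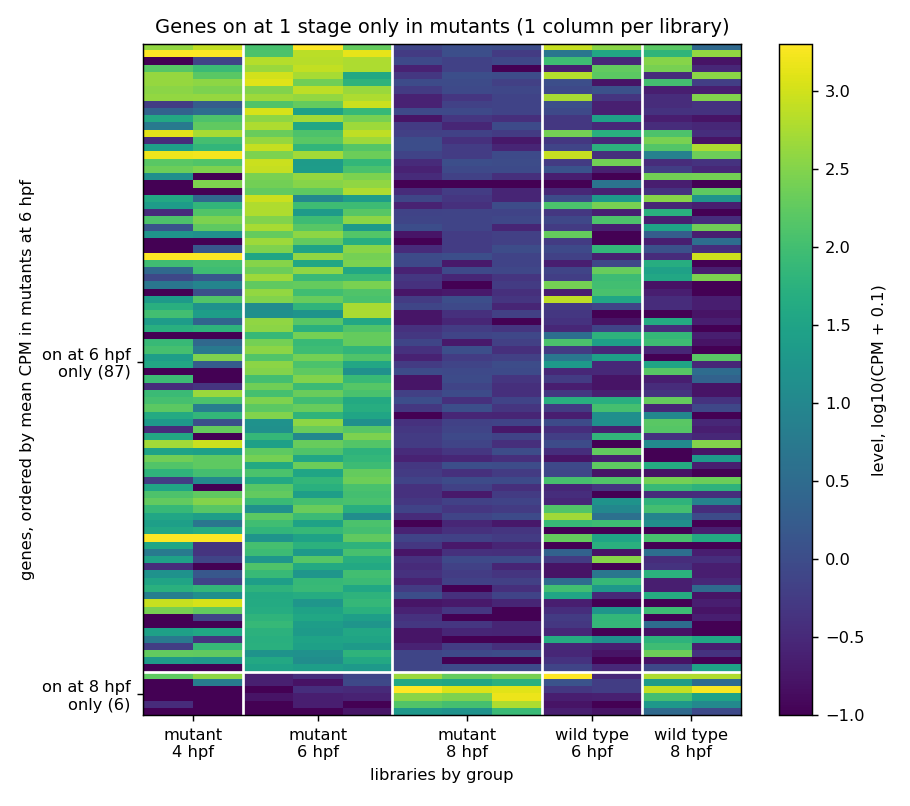
Each row is a gene and each column a library, coloured by log10(CPM + 0.1), for the 87 genes on at 6 hpf only and the 6 on at 8 hpf only in mutants. The mutant blocks of 6 and 8 hpf are wholly on or off because these values chose the genes. The levels of the 87 at 6 hpf span 10.2 to 1947 CPM. Of the 87, 43 are at 10 CPM or more in both mutant libraries of 4 hpf, and their wild-type columns are mixed at both stages. Of the 6, 5 have both wild-type libraries of 8 hpf above both of 6 hpf.

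The same change in wild type, from 2 against 2 libraries, called 3 of 5924 genes (0.0506%), 2 higher (0.0338%) and 1 lower (0.0169%), with 409 at an unadjusted p under 0.05. Without replicate 1 of 6 hpf or the unnumbered library of 8 hpf it called 0, and without replicate 2 of 6 hpf it called 14. The mutant libraries had no part in these calls. GSOIDG00003543001 had 17 and 17 counts in wild type at 6 hpf and 50004 and 108080 at 8 hpf, and 10, 18981 and 4900 in mutants at 6 hpf and 71448, 26418 and 62315 at 8 hpf. Each mutant pool of 8 hpf was above each of 6 hpf, at 4600 ± 1774 CPM against 535 ± 629 CPM (SD, n = 3 each; log2 change 3.29, SE 2.17, edgeR adjusted p = 0.288), and 2 of the 3 mutant pools of 6 hpf held 4900 and 18981 counts where wild type held 17.

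GSOIDG00017929001 had 3914 and 43838 counts in wild type at 6 hpf and 320452 and 459329 at 8 hpf. In mutants it had 54462, 49890 and 31590 counts at 6 hpf and 180717, 60640 and 146985 at 8 hpf, again without overlap (log2 change 1.67, SE 1.88, edgeR adjusted p = 0.525). GSOIDG00001010001, the gene lower at 8 hpf in wild type, had 1, 9417 and 6088 counts in mutants at 6 hpf and 8, 11 and 26 at 8 hpf, where replicate 1 of 6 hpf overlaps with the later stage (log2 change -7.79, SE 2.66, edgeR adjusted p = 0.127). The difference between the genotypes' changes did not pass for any of the 3 (edgeR adjusted p = 0.140 to 0.442).

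The test of the difference between the mutant and the wild-type change called 8 of 11469 genes (0.0698%), 3 higher (0.0262%) and 5 lower (0.0436%) in mutants, with 2766 at an unadjusted p under 0.05. Of these 8, 7 stayed under 100 counts in all 10 libraries, the largest count in any was 111, and 6 had a group with no count at all. The number was 5, 25 and 16 without mutant replicate 1, 2 or 3 of 6 hpf, 0 without any 1 of the 4 wild-type libraries, and 9 to 12 without 1 mutant library of 8 hpf. None of the genes abundant enough to be named by the rule passed. Those with the smallest p in each direction differed between pools of the same group. GSOIDG00008008001 had 0, 1360 and 3 counts in mutants at 8 hpf, no count in mutants at 6 hpf, and 1 and 66 then 0 and 0 in wild type (edgeR adjusted p = 0.140). GSOIDG00007297001 had 0, 364 and 72 counts in mutants at 6 hpf and none at 8 hpf, and 0 and 1 then 1 and 356 in wild type (edgeR adjusted p = 0.140). GSOIDG00013229001 had 0, 0 and 367 counts in mutants at 6 hpf and none at 8 hpf, and none then 1 and 1545 in wild type (edgeR adjusted p = 0.140).

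GSOIDG00013737001 lay apart between the stages in opposite directions in the genotypes. It had 2, 2 and 3 counts in mutants at 6 hpf and 29385, 6654 and 47 at 8 hpf, while wild type had 278 and 17568 counts at 6 hpf and 10 and 5 at 8 hpf. No library of a genotype overlapped with the other stage. The mutant change was 12.31 on the log2 scale (SE 2.53, edgeR adjusted p = 0.0488) and the difference between the genotypes' changes did not pass (edgeR adjusted p = 0.140).

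The most abundant gene was another one in nearly every pool. At 6 hpf it was GSOIDG00004108001 in replicate 1 (70228 counts), GSOIDG00006372001 in replicate 2 (132400) and GSOIDG00018034001 in replicate 3 (64313). At 8 hpf it was GSOIDG00017929001 in replicate 1 (180717), GSOIDG00018034001 in replicate 2 (111035) and GSOIDG00011140001 in replicate 3 (161933). Leading genes could still be shared. GSOIDG00017929001 ranked 2 in replicates 2 and 3 of 8 hpf, and 6, 5 and 19 in the pools of 6 hpf. It also ranked 1 in both wild-type libraries of 8 hpf.

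The leading gene of one pool could be near the floor in the next. GSOIDG00018034001 had 27, 10354 and 64313 counts at 6 hpf and 51, 111035 and 91 at 8 hpf, so that it was high and near 0 within each stage. GSOIDG00006372001 had 18601, 132400 and 63357 counts at 6 hpf and 34588, 10933 and 82 at 8 hpf. GSOIDG00011140001 was not near the floor in any mutant pool, with 8557, 1643 and 4108 counts at 6 hpf. At 8 hpf it had 4406 and 2416 in replicates 1 and 2 beside the 161933 of replicate 3. In wild type it had 12 and 10 counts at 6 hpf and 43700 and 28650 at 8 hpf. GSOIDG00004108001 was also near the floor in no mutant pool, with 70228, 34264 and 19961 counts at 6 hpf and 5379, 5455 and 17337 at 8 hpf.

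A run of 43 genes next to each other in identifier order, found in earlier work on the genotype difference in these data, was low in mutants at both stages. Its summed level was 720, 140 and 2.45 CPM in mutants at 6 hpf and 6.07, 111 and 10.9 CPM at 8 hpf, with overlapping stages, against 2676 to 5097 CPM in the wild-type libraries of 6 and 8 hpf. The run was chosen in these same data for its low level in mutants, so its distance from wild type is a description.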

How the data were processed

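Libraries of polyadenylated RNA were prepared, per the labels' protocols, with a low-input kit. The authors deposited estimated counts per gene, 1 table per stage, not scaled to depth. The submitters' processing notes name kallisto 0.46.0 and DESeq2. The sources used here name no transcript index or filter. Since kallisto splits reads over similar transcripts, near-identical gene copies have uncertain counts.

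Counts were rounded to whole numbers and the tables, with the same 17212 identifiers, joined by identifier; 0 matched the 17178 reference genes (assembly OKI2018_I68_1.0), so the functional and cell type lists were not run and no sequence is shown. One 8 hpf wild-type column, whose number is in no sample title, was used as an unnumbered replicate.

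The 6 mutant libraries were fitted in edgeR 4.0.16 (R 4.3.3) with filterByExpr, TMM factors and the two-sided quasi-likelihood test, Benjamini-Hochberg adjusted over all genes tested at 0.05. Wild type was fitted alone, and the difference of changes over 10 libraries. CPM used library totals. Standard errors came from the fitted weights. The script was tested on simulated data. Alternatives were other factors, DESeq2 1.42.0 on all identifiers, limma-voom (limma 3.58.1), other filters, thinned counts, a minimum fold of 1.5, joint fits, leaving out each library and a replicate block; a filter of 100 counts in 1 library was chosen after seeing the data.

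For identifiers without names, the rule was the 2 that rose and 2 that fell with the smallest adjusted p, at a mean of 5 CPM or more and without overlap, and for the difference 2 in each direction by p, with the most abundant gene of each pool. Comparison, measures and rules were chosen with earlier results of these data known. Floors cover counting error only, and reads without molecular identifiers are not independent molecules. Standard errors also include the fitted spread between pools.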

Additional observations from a re-analysis of the deposited data

Results flagged for a closer look

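edgeR's test of the difference between the mutant and wild-type changes from 6 to 8 hpf called 8 of 11469 genes (0.0698%). Of these, 7 stayed under 100 counts in all 10 libraries. The number was 0 with upper-quartile factors and 0 in 1 fit of 14 libraries. GSOIDG00013737001 drew attention because each genotype moved its own way without overlap, higher at 8 hpf in 3 of 3 mutant libraries and lower in 2 of 2 wild-type libraries. Its difference of changes was 22.37 on the log2 scale (SE 3.86) and failed the correction (edgeR adjusted p = 0.140; 1.89e-11 to 0.424 over the alternatives, of which 1 of 20 passed). No group had the 4 to 10 libraries needed to look for a single library far from the others.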

How the results depend on the processing

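The 544 mutant calls numbered 3 with RLE factors, 1736 with upper-quartile factors, 2443 with DESeq2, 0 with limma-voom, 96 without a low-count filter (50 higher and 46 lower), 28 on thinned counts, 293 at a minimum fold of 1.5, 18 in 1 fit of 10 libraries and 0 in 1 fit of 14 (4435 at an unadjusted p under 0.05). They were 0 at a mean of 5 CPM, 0 at 100 counts in 2 or more libraries (751 unadjusted) and 0 at 100 counts in 1 or more (1394 unadjusted), and 0 to 585 without 1 library. With a replicate block there were 858 calls, but the sources used here do not say whether the numbers pair the pools. Same-number correlations of deviations were -0.0218, -0.00193 and 0.0201, and those of different numbers were -0.0310 to 0.0305. The 3 wild-type calls became 0 with RLE or upper-quartile factors, 4507 with DESeq2, 446 with limma-voom, 26 without a filter, 0 at 100 counts in 2 or more libraries, and 0 to 14 without 1 library. The 8 differences became 24 with RLE factors, 0 with upper-quartile factors, 2158 with DESeq2, 4 with limma-voom, 18 without a filter, 0 at 5 CPM, 0 at 100 counts, 14 on thinned counts, 0 in 1 fit of 14, and 0 to 25 without 1 library. Genes wholly higher at 8 hpf (1627) became 6180 without a filter, 757 at 5 CPM and 1685 to 2516 without 1 library, and those wholly lower (582) became 207 with upper-quartile scaling and 660 to 1320 without 1 library. Genes on at 6 hpf only (87) became 197 at limits of 10 and 2 CPM, 36 at 50 and 1 CPM, 2 with upper-quartile scaling and 117 to 295 without 1 library; those on at 8 hpf only (6) became 145 with upper-quartile scaling and 9 to 54 without 1 library. Overlap of abundant genes at 20 counts was 36.3% within 8 hpf and 25.1% between stages; without 1 library it was 26.6% to 35.0% within 6 hpf, 13.7% to 20.9% within 8 hpf and 14.4% to 20.9% between stages. The cause of these moves was not tested. The stage differences in genes at 100 counts, empty genes and the share of the 100 most abundant genes kept their sign in every alternative. The first was -748 genes at a limit of 20 counts, where the stages overlapped (exact permutation p = 0.5). They were -2545 to -1522 genes, -4383 to -2488 genes and 9.26 to 23.5 points without 1 library. With 3 pools against 3, no library measure could reach an exact p under 0.1, and counts of 0 to 9 limit what can be said of low genes.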
